A study of Rattus norvegicus with 12 samples.

Results

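A set of 8 hepatocyte transporters of bile and sterols was examined in rat liver under diets with and without wakame, an edible brown seaweed. The 8 genes were Abcb4, Abcb11, Abcg5, Abcg8, Abca1, Abcc2, Slc10a1 and Slco1b2, chosen by name. Their members on the array were the probe sets, groups of short probes aimed at a transcript, whose only gene symbol in the platform's annotation was one of these names. This gave 12 probe sets, and no probe set listed a member together with another gene. A probe set with a standard deviation (SD) of at most 0.01 log2 over the 12 arrays was counted as unmeasured, because its value was in effect the same on every array. By this rule 9 probe sets of 6 genes were measured, out of 3240 measured among 31042 probe sets other than the manufacturer's controls. The members just outside the limit were the 3 unmeasured probe sets given below, with an SD of at most 5.81e-08, and the one just inside was Slc10a1 1368609_at, with an SD of 0.0524. Each gene named by a single symbol counted once, the array held 14217 genes, of which 2301 were measured.

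Liver RNA came from male Sprague Dawley rats aged 9 weeks that had eaten 1 of 3 diets for 28 days. The diets were the purified AIN-93G diet (control), the same diet with 0.1% wakame powder, and the same diet with 1% wakame powder. Each diet had 4 arrays of separate animals, numbered 1 to 4, out of 6 rats fed per diet. The rats were kept 3 to a cage. Which cages gave the 4 arrays of a diet is not given in the sources used here, so arrays of one diet may share a cage, and cage could not be fitted. On the 3240 measured probe sets, correlations between arrays of one diet were 0.911 to 0.961, and 0 pairs were identical. All values are the deposited log2 values. Levels of different probe sets are not set against each other, since each has its own binding strength.

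Hepatocytes take bile acids and other organic anions from blood through carriers in their sinusoidal membrane, and release bile salts, phospholipid, cholesterol and conjugates into the bile canaliculus through ATP-driven (ABC) transporters. Bile forms when these outputs meet: phospholipid and bile salts make mixed micelles that carry cholesterol. The nuclear receptors FXR and LXR, which sense bile acids and oxysterols, are known to regulate several of these genes.

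Abcb4 and Slc10a1 were the members whose 4 arrays of the 1% diet all lay above all 4 control arrays, and their start regions are shown for that reason. The windows run from 250 bases before to 50 bases after the annotated start and are RefSeq sequences of the assembly GRCr8, both on the minus strand, at chr4:26164096-26164395 for Abcb4 and chr6:106357895-106358194 for Slc10a1. The annotated Abcb4 gene runs to base 26164440, so its window lies wholly inside the gene. The annotated Slc10a1 gene runs to base 106357944, which is within its window. The capitals mark the GC box GGGCGG in Abcb4 and the nuclear receptor hexamer AGGTCA in Slc10a1.
Abcb4: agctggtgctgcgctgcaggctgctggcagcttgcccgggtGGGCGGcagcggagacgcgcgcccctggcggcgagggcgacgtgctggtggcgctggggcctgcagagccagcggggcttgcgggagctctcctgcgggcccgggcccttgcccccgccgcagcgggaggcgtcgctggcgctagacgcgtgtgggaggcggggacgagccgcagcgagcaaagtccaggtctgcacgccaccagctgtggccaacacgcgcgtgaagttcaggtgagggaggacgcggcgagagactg
Slc10a1: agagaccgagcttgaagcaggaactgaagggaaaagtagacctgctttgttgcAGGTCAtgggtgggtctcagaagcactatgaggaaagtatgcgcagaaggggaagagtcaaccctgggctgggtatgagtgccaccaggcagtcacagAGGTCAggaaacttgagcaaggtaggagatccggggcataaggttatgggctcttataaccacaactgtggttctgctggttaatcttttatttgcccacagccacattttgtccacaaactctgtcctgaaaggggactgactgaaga

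Promoter windows were matched for 7 of the 8 members, all except Abcb11. The Abcb4 window was 74.3% G or C and the Slc10a1 window 50.0%, against a median of 51.7% over 33469 rat windows. Motifs were searched as exact letters on both strands. The hexamer AGGTCA was in the windows of Abcc2, Slc10a1 and Slco1b2, that is 3 of 7, and in 16.2% of all windows. The GC box GGGCGG was in those of Abcb4, Abca1 and Abcc2, and in 33.1% of all windows. The inverted repeat AGGTCANTGACCT, the form FXR binds with its partner RXR, was in 0 of 7 and in 0.0269% of all windows. The direct repeat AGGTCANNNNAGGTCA, the form LXR binds, was in 0 of 7 and in 0.00598%. The direct repeat AGGTCANAGGTCA was in 0 of 7 and in 0.0538%. These 3 repeats contain the hexamer, so the searches overlap. The exact repeats are so rare over all windows that 0 of 7 was nearly certain beforehand. Sites with other letters were not searched, so these counts do not show that the members lack sites for FXR or LXR. The E-box CACGTG was in the Abca1 window alone among the members, and in 6.42% of all windows. CCAAT was in 3 windows (Abcg5, Abcg8 and Abcc2) and in 37.5% of all, and TATAAA was in 4 (Abcg5, Abcg8, Abca1 and Slco1b2) and in 14.2%. Abcg5 and Abcg8 are neighbouring genes on opposite strands, and their windows cover nearly the same bases, so each of their CCAAT and TATAAA matches is counted under both.

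The first question was whether the exporters of the canalicular membrane differed between wakame-fed and control livers. Abcb4, the flippase (MDR2 in rodents) that moves phosphatidylcholine into bile, lay higher at both wakame doses. Its probe set 1369161_at had 8.19, 8.11, 8.60 and 8.07 log2 in control livers, 9.24, 9.09, 8.93 and 8.94 log2 on 0.1% wakame, and 9.32, 9.76, 9.10 and 8.61 log2 on 1% wakame. All 8 wakame-fed livers lay above all 4 control livers, although array 4 of the 1% diet cleared the highest control, array 3, by a narrow margin. The means were 8.24 ± 0.24, 9.05 ± 0.15 and 9.20 ± 0.48 (SD, n = 4 each) in this dose order. The 1% diet was 0.96 ± 0.21 log2 above control (SE, 1.94-fold, 95% interval 0.48 to 1.43), with a limma adjusted p of 0.0579 over the 3240 measured probe sets and an unadjusted p of 0.00107. The 0.1% diet was 0.81 ± 0.21 log2 above control (1.75-fold, limma adjusted p = 0.196). The 2 doses differed by 0.15 ± 0.21 log2, 1% minus 0.1%, with an interval of −0.33 to 0.62 (limma adjusted p = 0.955). None of these passed the threshold of 0.05. Without array 4 of the 1% diet, the difference of the 1% diet from control was 1.15 log2 and passed (limma adjusted p = 0.0416). Without any other single array of these 2 diets it did not pass, and the adjusted p over all 8 such fits was 0.0416 to 0.136.

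One measure of RNA integrity was also higher in 3 of the 4 arrays of the 1% diet than in any control array. The difference between the 3-prime and 5-prime control probe sets of Gapdh, which widens as RNA shortens, was 1.07, 1.04, 1.05 and 1.05 log2 in control livers. It was 1.20, 1.07, 0.958 and 1.10 log2 on 0.1% wakame, and 1.22, 1.42, 1.17 and 1.04 log2 on 1% wakame. Within the 1% diet the 4 arrays stood in the same order for this measure and for Abcb4, as the plot of Abcb4 against it shows. With the measure as a covariate, the Abcb4 difference from control was 0.56 ± 0.16 log2 for the 1% diet (SE, limma adjusted p = 0.219, unadjusted p = 0.00598). For the 0.1% diet the Abcb4 difference from control was then 0.74 log2 (limma adjusted p = 0.137). Of all measured probe sets, 4 passed between the 1% diet and control with this covariate and 54 without it, which also bears on the adjusted p. The same measure for Actb was 2.21 to 2.49 log2 in control livers, 2.07 to 2.43 log2 on 0.1% wakame and 2.28 to 2.43 log2 on 1% wakame, so its groups overlapped.

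**Figure D1:**
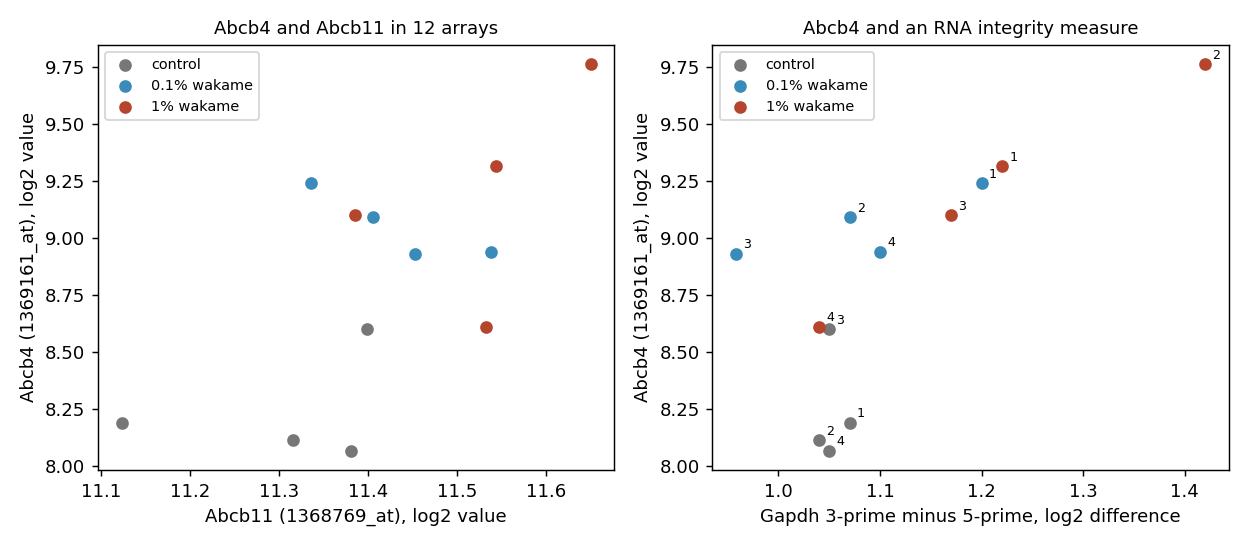
Left, the log2 value of Abcb4 (y axis) against that of Abcb11 (x axis), 1 point per array and colour by diet. Right, Abcb4 against the Gapdh 3-prime minus 5-prime log2 difference, with replicate numbers; all 4 control arrays lie at 8.60 or below on the Abcb4 axis and the array at 1.42 on the Gapdh axis has the highest Abcb4 value, 9.76.

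Abcb11, the bile salt export pump (BSEP), had 11.12, 11.32, 11.40 and 11.38 log2 in control livers, 11.34, 11.41, 11.45 and 11.54 log2 on 0.1% wakame, and 11.54, 11.65, 11.39 and 11.53 log2 on 1% wakame (probe set 1368769_at). The group means stood in dose order, at 11.30 ± 0.13, 11.43 ± 0.09 and 11.53 ± 0.11 (SD, n = 4 each), and the groups overlapped because array 3 of the 1% diet lay below the highest control. The 1% diet was 0.22 ± 0.08 log2 above control (SE, interval 0.05 to 0.39, limma adjusted p = 0.174, unadjusted p = 0.0158). The 0.1% diet was 0.13 ± 0.08 log2 above control (limma adjusted p = 0.581).

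Abcc2 (MRP2), which exports bilirubin glucuronides and other conjugates, had 10.63, 10.85, 10.92 and 10.84 log2 in control livers and 10.84, 10.98, 10.90 and 10.96 log2 on 0.1% wakame (probe set 1368497_at). On 1% wakame it had 9.57, 11.53, 10.67 and 10.94 log2, so that the 1% diet held both the lowest and the highest of the 12 values. Its SD was 0.82 in the 1% diet, against 0.12 in control (n = 4 each). The 1% diet was 0.13 ± 0.32 log2 below control, a difference of −0.13 with an interval of −0.83 to 0.57 (limma adjusted p = 0.893). Without array 1 of the 1% diet that difference was 0.24 log2. The 0.1% diet was 0.11 ± 0.32 log2 above control (limma adjusted p = 0.933).

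The within-array difference of Abcb4 and Abcb11 asked whether the probe sets of the phospholipid and bile salt exporters shifted by the same log2 amount. Different probe sets may not respond alike to RNA amount, so unlike shifts need not be unlike changes in RNA. Abcb4 minus Abcb11 was 0.73 log2 larger on 1% wakame than in control, with an exact two-sided permutation p of 0.0571. It was 0.68 log2 larger on 0.1% wakame than in control (exact p = 0.0286, the smallest that 4 arrays against 4 allow), and 0.05 log2 larger on 1% than on 0.1% wakame (exact p = 0.886). These p-values were not adjusted for the 6 such comparisons made with this pair and the pair of uptake carriers. Over the 12 arrays Abcb4 and Abcb11 had a Pearson r of 0.655 (permutation p = 0.0190, Benjamini-Hochberg 0.0319 over 6 relations) and a Spearman rho of 0.608 (permutation p = 0.0400, adjusted 0.0600). Once each diet's mean was subtracted, r was 0.247 (permutation p = 0.520), and no relation was detectable within diets. With only 4 arrays per diet, the sign of r was negative on 0.1% wakame and positive in control and on 1% wakame. Without control array 4 and array 2 of the 1% diet, the farthest from the Abcb4 median, r was 0.558 (permutation p = 0.0927) and did not pass.

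The sterol exporters form the next group. Abcg5 and Abcg8 encode the partners of a heterodimer that pumps cholesterol and plant sterols into bile, and neither was measured. Their probe sets stood at 6.44 log2 (1369455_at, SD 5.81e-08) and 5.92 log2 (1369440_at, SD 5.22e-10) on every array, which does not show that their RNA was unchanged. One of the 4 probe sets of Abca1 was unmeasured in the same way, at 7.21 log2 (1384381_at, SD 1.09e-08).

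Abca1, which loads cholesterol and phospholipid onto apolipoprotein A-I to form HDL at the sinusoidal side and is also active in macrophages, varied most among the members between livers of one diet. Its brightest probe set 1382431_at had 10.29, 10.21, 10.19 and 10.25 log2 in control livers, 8.84, 11.27, 8.73 and 10.59 log2 on 0.1% wakame, and 10.89, 10.03, 10.34 and 10.05 log2 on 1% wakame. The control livers lay close together, and the 0.1% diet held arrays 1 and 3 far below them and array 2 far above. The SDs were 0.04 in control, 1.27 on 0.1% wakame and 0.40 on 1% wakame (n = 4 each). The means did not separate: the 1% diet was 0.09 ± 0.50 log2 above control (SE, limma adjusted p = 0.959, interval −1.02 to 1.21), and the 0.1% diet differed from control by −0.38 ± 0.50 log2 (limma adjusted p = 0.833, interval −1.49 to 0.74).

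The other Abca1 probe sets did not all follow this pattern. Probe set 1394490_at had 7.78, 7.52, 8.05 and 7.50 log2 in control livers, 6.66, 8.63, 6.68 and 7.52 log2 on 0.1% wakame, and 7.96, 7.17, 7.68 and 7.44 log2 on 1% wakame, again with arrays 1 and 3 of the 0.1% diet lowest and array 2 highest. Probe set 1383355_at had 8.48, 8.64, 8.80 and 8.51 log2 in control livers, 9.07, 8.64, 8.79 and 8.22 log2 on 0.1% wakame, and 8.10, 8.84, 8.72 and 8.69 log2 on 1% wakame, with array 1 of the 0.1% diet highest. Over the 12 arrays 1382431_at and 1394490_at had r = 0.910 (permutation p = 0.00017, adjusted 0.00069) and rho = 0.783 (permutation p = 0.00408), and after subtracting diet means r = 0.919 (permutation p = 0.00473). Without arrays 1 and 3 of the 0.1% diet r was 0.799. In contrast 1382431_at and 1383355_at had r = −0.658 (permutation p = 0.0213, adjusted 0.0319) and rho = −0.741 (permutation p = 0.00781). Without arrays 1 and 3 of the 0.1% diet that r was −0.493 (permutation p = 0.131) and did not pass, and after subtracting diet means it was −0.647 (permutation p = 0.0690). Which transcript each probe set reads was not tested. Against control, 1383355_at differed by −0.02 ± 0.20 log2 on 1% wakame (limma adjusted p = 0.970), and 1394490_at by −0.15 ± 0.39 log2 (limma adjusted p = 0.902). The summed level of the 5 measured Kupffer cell markers, out of 8 listed, was 2443 to 3885 on the linear scale in control livers, 2459 to 3975 on 0.1% wakame and 2198 to 4395 on 1% wakame. The part of macrophages in the Abca1 values was not tested.

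**Figure D2:**
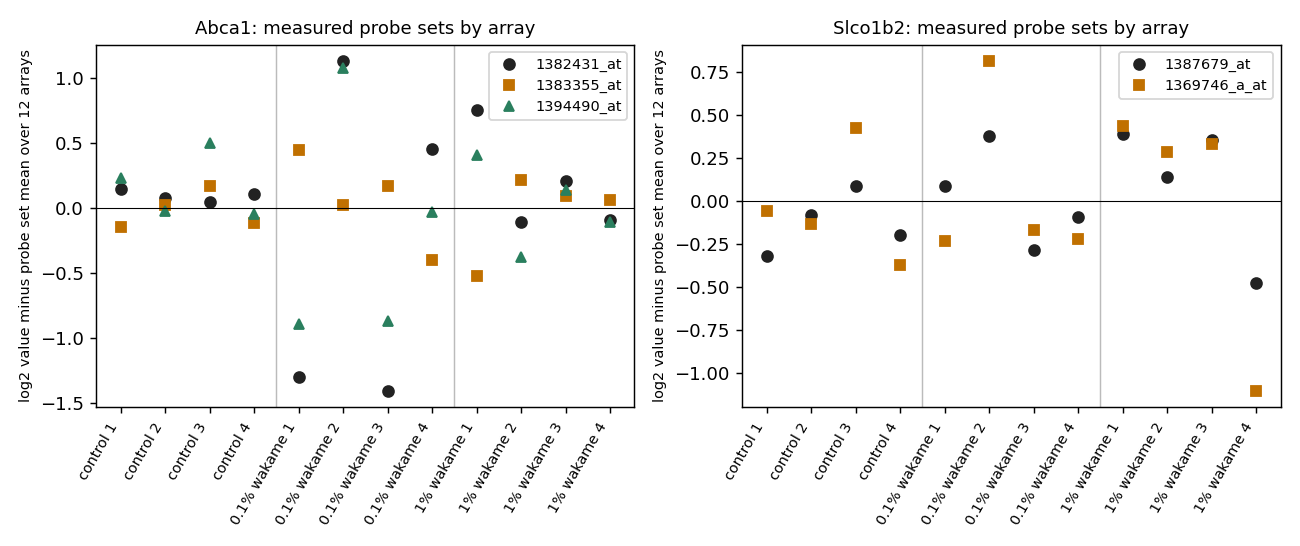
Log2 value of each measured probe set minus its own mean over the 12 arrays (y axis), by array (x axis), for Abca1 (left, 3 probe sets) and Slco1b2 (right, 2 probe sets). In Abca1, 1382431_at and 1394490_at are both lowest in arrays 1 and 3 of the 0.1% diet while 1383355_at does not; in Slco1b2, 1369746_a_at is lowest in array 4 of the 1% diet, at a log2 value of 9.57.

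Among the uptake carriers, Slc10a1 (NTCP), the sodium-dependent carrier of conjugated bile acids, was the steadiest member. Its probe set 1368609_at had 12.484, 12.409, 12.473 and 12.521 log2 in control livers, 12.518, 12.486, 12.447 and 12.5555 log2 on 0.1% wakame, and 12.568, 12.591, 12.522 and 12.5446 log2 on 1% wakame. The 1% arrays all lay above the control arrays, the closest pair being 12.5221 in array 3 of the 1% diet and 12.521 in control array 4. The 1% diet was 0.08 ± 0.04 log2 above control (SE, 1.06-fold, limma adjusted p = 0.260, unadjusted p = 0.0459), and the 0.1% diet 0.03 ± 0.04 log2 (limma adjusted p = 0.821).

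Slco1b2 (OATP1B2), a sodium-independent carrier of organic anions and bile acids, had 11.43, 11.67, 11.84 and 11.55 log2 in control livers, 11.84, 12.13, 11.47 and 11.66 log2 on 0.1% wakame, and 12.14, 11.89, 12.11 and 11.28 log2 on 1% wakame (probe set 1387679_at). The 3 diets overlapped, and array 4 of the 1% diet was the lowest of the 12. The 1% diet was 0.23 ± 0.20 log2 above control (interval −0.21 to 0.67, limma adjusted p = 0.575). That difference was 0.13 log2 without array 1 and 0.42 log2 without array 4 of the 1% diet, and 0.03 log2 with the Gapdh measure as a covariate, none of which passed. Its dimmer probe set 1369746_a_at averaged 10.63 ± 0.33 in control, 10.72 ± 0.51 on 0.1% wakame and 10.66 ± 0.73 on 1% wakame (SD, n = 4 each), and the 1% diet differed from control by 0.02 ± 0.36 log2 (limma adjusted p = 0.982). The 2 probe sets had r = 0.851 over the 12 arrays (permutation p = 0.00023, adjusted 0.00069) and rho = 0.748 (permutation p = 0.00703). Without arrays 1 and 4 of the 1% diet r was 0.779 (permutation p = 0.00776). After subtracting diet means it was 0.896 (permutation p = 0.00853).

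Slc10a1 minus Slco1b2 differed by −0.14 log2 between the 1% diet and control (exact two-sided permutation p = 0.543) and by −0.12 log2 between the 0.1% diet and control (exact p = 0.486). Over the 12 arrays these carriers had r = 0.227 (permutation p = 0.478) and rho = 0.308 (permutation p = 0.332). No relation between them was detectable with 12 arrays.

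**Figure D3:**
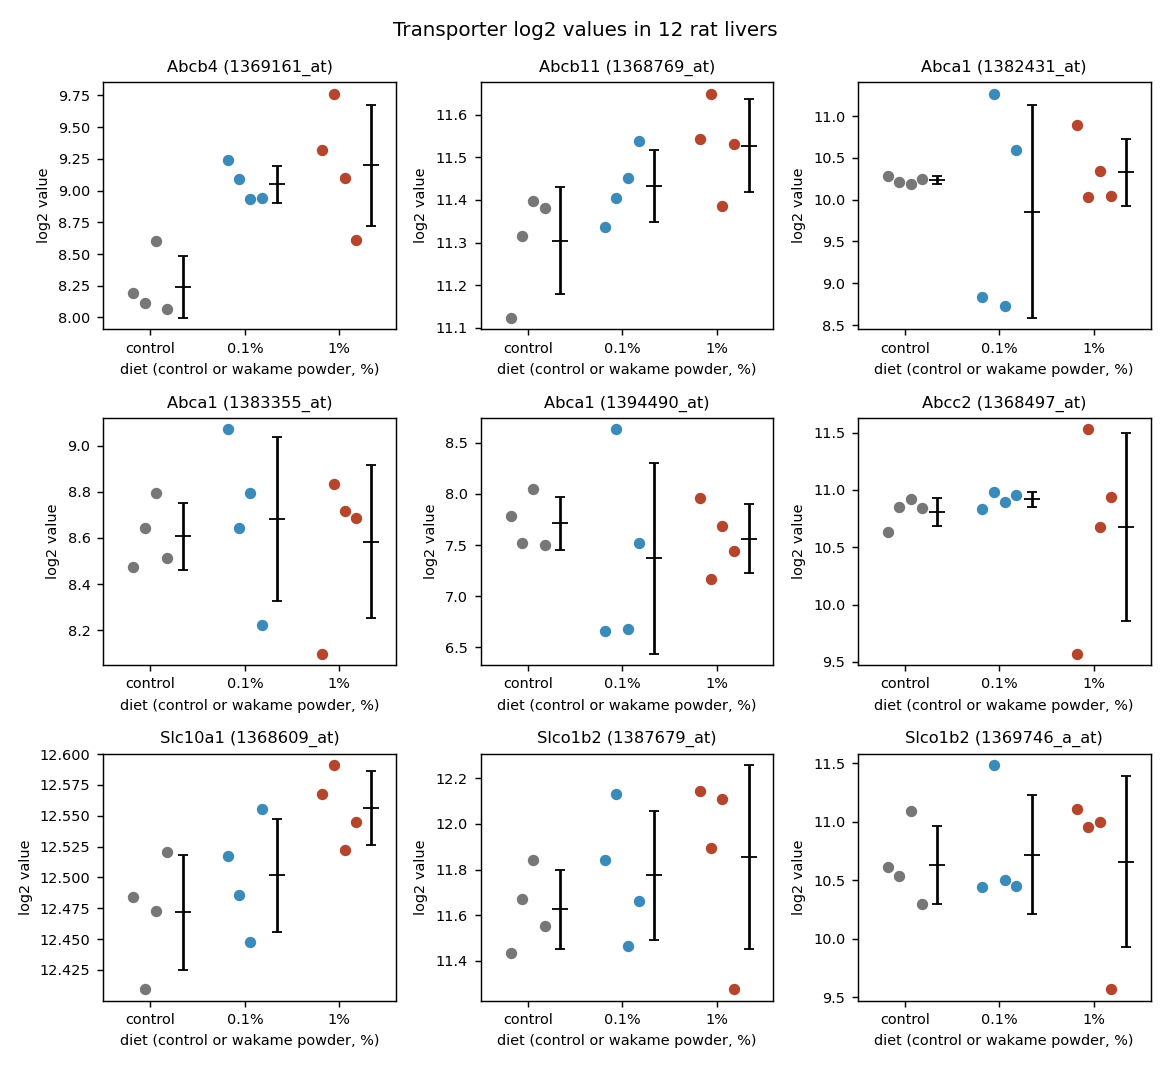
Log2 value (y axis) of each of the 9 measured probe sets in the 4 livers of each diet (x axis; control, 0.1% and 1% wakame), with points for single arrays in replicate order and bars for mean ± SD. Abcb4 lies above all control values in all 8 wakame-fed livers, Abca1 1382431_at spreads from 8.73 to 11.27 on 0.1% wakame, and each panel has its own y axis range.

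Counted together, 0 of the 9 measured probe sets passed limma's adjusted threshold between the 1% diet and control, where 1.67% of the measured probe sets (54 of 3240) passed. At an unadjusted limma p under 0.05 there were 3, Abcb4, Abcb11 and Slc10a1, all higher on 1% wakame. Of all measured probe sets 18.5% reached it in either direction and 8.4% in the higher direction. With the Gapdh measure as a covariate the unadjusted limma p was 0.00598 for Abcb4, 0.0694 for Abcb11 and 0.260 for Slc10a1. With the Actb measure as a covariate all 3 stayed under 0.05. Without a variance trend the unadjusted limma p of Slc10a1 was 0.103. Groups without overlap were found for 2 of 9, Abcb4 and Slc10a1, both higher, beside 11.3% of all measured probe sets in either direction and 5.22% higher. Between the 0.1% diet and control 0 of 9 passed (background 0.0617%), 1 of 9, Abcb4, reached an unadjusted limma p under 0.05 (background 11.5%, 4.72% higher), and Abcb4 alone did not overlap (background 5.86%, 2.5% higher). Between the 1% and the 0.1% diet 0 of 9 passed and 0 of 9 reached an unadjusted limma p under 0.05 (backgrounds 0% and 6.76%), and 0 of 9 were without overlap (background 3.77%). The limma F-test over the 3 diets called 0 of 9 (background 0.185%), with Abcb4 and Abcb11 at an unadjusted p under 0.05 (background 14.2%).

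The difference was above 0 in 6 of 9 probe sets for the 1% diet against control (background 44.9%), in 7 of 9 for the 0.1% diet against control (44.1%) and in 6 of 9 for the 1% against the 0.1% diet (49%). With the brightest probe set of each gene, 5 of the 6 measured genes were higher on 1% wakame than in control, Abcc2 being the exception, with a median difference of 0.16 log2 beside −0.02 log2 over all measured probe sets. Abca1 counted as higher through 1382431_at alone, while its probe sets 1383355_at and 1394490_at differed by −0.02 and −0.15 log2. For the 0.1% diet against control the medians were 0.12 log2 for the genes and −0.02 log2 for all measured probe sets. Both comparisons share the control livers. The members spread very differently within diets. Pooled over the 3 diets, the within-diet SD was 0.0415 log2 for Slc10a1, 0.108 for Abcb11, 0.322 for Abcb4, 0.48 for Abcc2 and 0.77 for Abca1 1382431_at, beside a median of 0.206 over all measured probe sets.

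**Figure D4:**
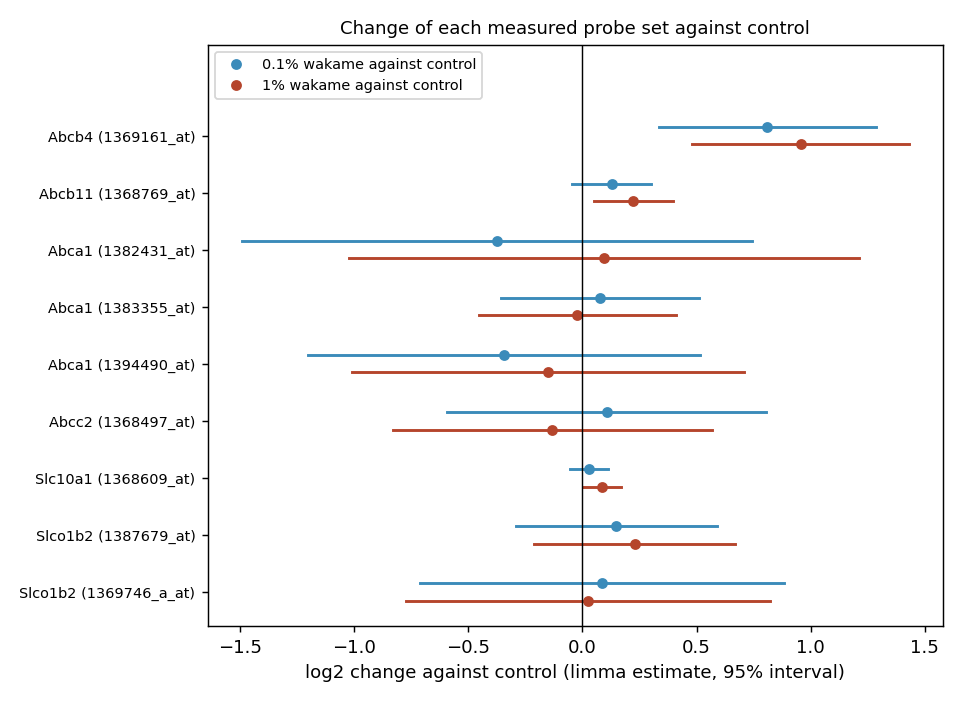
Log2 difference from control (x axis, limma estimate with its 95% interval) of the 9 measured probe sets (y axis), with the 0.1% diet above the 1% diet for each probe set. The Abcb4 intervals lie furthest to the right, from 0.48 to 1.43 for the 1% diet, and the Slc10a1 interval is the narrowest; no probe set passed the adjusted threshold.

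Genes that regulate, place or accompany these transporters were then read from 4 lists. A list of other bile acid, sterol and phospholipid transporters held 31 genes, of which 14 were measured. Of the 14, 10 were higher and 4 lower on 1% wakame than in control. Their median difference was 0.06 log2, and of all measured probe sets 44.9% were higher. Slc27a5 is counted in this list and again among the bile acid synthesis enzymes. In limma 0 of the 14 passed, beside 1.67% of all measured probe sets. An unadjusted p under 0.05 was reached by 1 of the 14, beside 18.5% of all measured probe sets. The smallest p there belonged to Slco1a4 (OATP1A4), a sinusoidal carrier of organic anions, whose probe set 1387093_at had 12.57, 12.34, 11.66 and 11.91 log2 on 1% wakame, against 10.39, 10.90, 11.30 and 11.65 log2 in control. Its groups did not overlap, the closest pair being 11.66 in array 3 of the 1% diet and 11.65 in control array 4. Groups without overlap made up 11.3% of all measured probe sets in either direction and 5.22% higher. The Slco1a4 groups differed by 1.06 ± 0.33 log2 (limma adjusted p = 0.131), and its second probe set by 0.90 ± 0.29 log2 (limma adjusted p = 0.137). Abcc6 and Slc22a7, an anion carrier of the sinusoidal membrane, followed at 0.29 ± 0.16 log2 (limma adjusted p = 0.360) and 0.22 ± 0.15 log2 (limma adjusted p = 0.479).

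Of 26 regulators, 12 were measured, 7 higher and 5 lower on 1% wakame than in control (background 44.9% higher). In limma 1 of the 12 passed, beside 1.67% of all measured probe sets. Nr5a2 (LRH-1), a nuclear receptor that acts on bile acid synthesis and sterol transport genes, had 9.71, 9.40, 9.41 and 9.47 log2 on 1% wakame, against 9.08, 8.87, 8.90 and 8.75 log2 in control (probe set 1390965_at). It rose by 0.60 ± 0.13 log2 (limma adjusted p = 0.0486), and without any 1 of the 8 arrays in turn it did not pass (adjusted p 0.0678 to 0.129). It passed in 4 of 21 alternative fits in all. Its dimmer probe set differed by 0.07 ± 0.07 log2 (limma adjusted p = 0.662). Another 4 regulators, named here after their values were seen, reached an unadjusted p under 0.05 without passing, which with Nr5a2 makes 5 of 12, beside the background of 18.5%. Nr0b2 (SHP), the FXR-induced repressor, was 1.49 ± 0.59 log2 higher (limma adjusted p = 0.220) and Nr1i3 (CAR), a xenobiotic receptor, 1.16 ± 0.41 log2 higher (limma adjusted p = 0.175). Srebf1, the lipogenic factor SREBP-1, differed by −1.07 ± 0.37 log2 (limma adjusted p = 0.165), and by −0.59 ± 0.30 log2 in its second probe set (limma adjusted p = 0.316). Nfe2l2 (NRF2), the oxidant response factor, differed by −0.69 ± 0.26 log2 (limma adjusted p = 0.201). On 0.1% wakame against control, the differences were 1.93 log2 for Nr0b2, larger than on 1% wakame, and 0.82 log2 for Nr1i3. They were −0.59 log2 for the first Srebf1 probe set and −0.46 log2 for Nfe2l2 (limma adjusted p 0.231 to 0.598 over these 4). Nr1h4, which encodes FXR, differed by 0.03 ± 0.17 log2.

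Of 14 canalicular placement and scaffold proteins listed, 2 were measured, both higher on 1% wakame (background 44.9% higher). Of these 2, Cgnl1 (paracingulin), a junction protein, passed in limma, beside 1.67% of all measured probe sets. This list was chosen with earlier results of these data known, and whether Cgnl1 places transporters was not tested. Cgnl1 had 9.95, 9.90, 9.80 and 9.80 log2 on 1% wakame, against 9.50, 9.52, 9.61 and 9.56 log2 in control, and rose by 0.32 ± 0.06 log2 (limma adjusted p = 0.0319). It kept an adjusted p under 0.05 in 2 of the 8 fits that leave out 1 array, those without control array 3 or array 3 of the 1% diet, and the adjusted p over the 8 was 0.0392 to 0.116. In all it passed in 9 of 21 alternative fits. Of 13 bile acid synthesis enzymes, 11 were measured, 8 higher and 3 lower on 1% wakame than in control (background 44.9% higher). Their median difference was 0.21 log2. In limma 0 of the 11 passed (background 1.67%), and 2 of 11 reached an unadjusted p under 0.05 (background 18.5%). The 3 with the smallest p were Cyp27a1, the sterol 27-hydroxylase, at 0.40 ± 0.12 log2 (limma adjusted p = 0.123), Acox2, the peroxisomal oxidase that shortens the bile acid side chain, at 0.51 ± 0.20 log2 (limma adjusted p = 0.216), and Amacr, the racemase of that pathway, at 0.56 ± 0.27 log2 (limma adjusted p = 0.289). On 0.1% wakame against control 0 measured genes of these 4 lists passed in limma (background 0.0617%). An unadjusted limma p under 0.05 was reached by 0 of 14 transporters, 2 of 12 regulators, 1 of 2 placement and scaffold proteins and 4 of 11 synthesis enzymes. The share of all measured probe sets was 11.5%.

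The genes whose values ran most like each member over the 12 arrays were taken from 2574 other measured probe sets with a single symbol, as a description. They were Ddi2 (r = 0.899) and Nr1i2 (r = 0.895) for Abcb4, Il6st (0.916) and Sh3bp5 (0.904) for Abcb11, and RT1-CE12 (0.84) and Slc25a15 (0.802) for Abcc2. For Abca1 they were Vsig10 (0.83) and Arsb (0.747), for Slc10a1 Hacl1 (0.923) and Ibtk (0.901), and for Slco1b2 Clic4 (0.88) and Popdc2 (0.88). The points share the 3 diets, so a gene that differs with diet can rank high. Nr1i2 encodes PXR, a xenobiotic receptor that regulates several transporters, and itself differed by 0.05 ± 0.04 log2 between the 1% diet and control (limma adjusted p = 0.574).

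Hepatocyte markers were read as a description, and 6 of 12 were measured (Apoa1, Apob, Cps1, Tat, Cyp2e1 and Hnf4a). No other tissue was compared, so they do not test the labelled tissue. Alb, Ttr, Tf, Serpina1, Ahsg and Fgb were unmeasured. The summed linear level of the measured 6 was 31465 to 35337 in control livers, 34451 to 46810 on 0.1% wakame and 34334 to 42577 on 1% wakame. Cyp2e1 averaged 12.23 log2 in control, 13.13 on 0.1% and 12.90 on 1% wakame. Tat averaged 9.12, 9.90 and 8.09 log2 in the same order. Apoa1, Apob and Cps1 differed from control by at most 0.05 log2 at either dose. The sums add unlike probe sets, so they do not measure the share of hepatocytes. In limma 0 of the 6 passed in the 3 comparisons (backgrounds 1.67%, 0.0617% and 0%). An unadjusted limma p under 0.05 was reached by 0 for 1% wakame against control (background 18.5%). For 0.1% wakame against control 2 reached it (background 11.5%), Cyp2e1 at 0.90 ± 0.35 log2 and Hnf4a at 0.23 ± 0.09 log2. Between the doses, 1% minus 0.1%, 1 reached it (background 6.76%), Tat at −1.81 ± 0.48 log2. None of the 8 cholangiocyte markers was measured. In the lists for Kupffer, endothelial, stellate, lymphoid and erythroid cells 0 measured markers passed in limma. For the 1% diet against control, Colec11 of the stellate cell list was the one at an unadjusted limma p under 0.05 there (background 18.5%). Its difference was 0.21 ± 0.09 log2 (limma adjusted p = 0.243). In whole liver a lower value can come from fewer cells of a type or from less RNA per cell, and these cannot be told apart.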

How the data were processed

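Liver RNA of 12 rats was measured on 12 one-colour rat expression arrays, from 100 ng of RNA each per the labels' protocols. The authors deposited 1 table of log2 values with a column per array. No source gives the scale, and log2 was read from the range of 3.15 to 14.6. The submitters' processing notes name R 2.7.2, with background correction, normalization and genome build not given in the sources used here. Each array's median was 6.59 log2. How the values that hardly vary were made is unknown, and precision is limited by having 4 arrays per diet.

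The deposited log2 values were fitted without further normalization in limma 3.58.1 (R 4.3.3), with 1 mean per diet on all 12 arrays and a variance trend, over the 3240 probe sets with an SD above 0.01. Leaving out control probe sets (57) and unmeasured ones (27802) follows the rule that chose the members. Adjusted p is Benjamini-Hochberg over these 3240, with a threshold of 0.05. Where a value carries ± SE, n is 4 arrays per diet. Permutation tests were coded in Python 3.11.15 with NumPy 2.4.6, exact for 4 arrays against 4 and with 100000 resamples for correlations. SciPy 1.17.1 gave the ranks for Spearman rho. The fit was tested on simulated data. Marker sums add 2 to the power of the log2 values.

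The members and lists were chosen with earlier results of these data known. Named beside the members are list genes past the threshold, otherwise the 3 with the smallest p in the comparison of the 1% diet with control, and the 2 genes most like each member. Replicate numbers were checked for pairing. Alternatives covered the SD limit, trend, centring, quantile normalization, dim probe sets, RNA integrity covariates, a replicate block and leaving out arrays.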

Additional observations from a re-analysis of the deposited data

Results flagged for a closer look

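The probe set 1369746_a_at of Slco1b2 had 1 array far from the other 3 in each wakame diet. On 0.1% wakame, array 2 stood at 11.48 log2 and the others at 10.44 to 10.50, a gap of 0.937 of the whole range. On 1% wakame, array 4 stood at 9.57 log2 and the others at 10.96 to 11.11, a gap of 0.903 of the range. Chance sets apart about 1 in 20 groups of 4 in this way, and these were 2 of 63 groups examined.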

How the results depend on the processing

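Between 1% wakame and control, 54 measured probe sets passed. The count was 9 with all probe sets fitted, 2 with dim probe sets left out, 26 with 1 probe set per gene, 29 with robust variances, 28 with these 2 diets only, 4 with the Gapdh covariate and 29 with the Actb covariate. Leaving out 1 array gave 7 to 36. Replicate numbers did not pair the samples: same-numbered arrays deviated with correlations of −0.115 to 0.092, and between the 1% diet and control 2 of 8 arrays correlated best with their own number. With the numbers as a block 12 passed, and the Abcb4 adjusted p was 0.0911 (limma). Of the member probe sets fitted, 0 passed between 1% wakame and control under each alternative, except that leaving out 1 array gave 0 to 1. All 9 were fitted, save 8 at an SD limit of 0.1, 6 with 1 probe set per gene and 6 with dim ones left out. Abcb4, with a mean below the median of measured probe sets, was left out as dim and has no value there. Over the other alternatives than leaving out an array, the Abcb4 adjusted p was 0.0501 to 0.305 (limma).

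The Abcb4 and Abcb11 correlation of 0.655 was 0.247 after diet means, 0.558 without the 2 farthest arrays and 0.512 to 0.741 without 1 array. Their within-array difference was 0.585 to 0.931 without 1 array.

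The 27 member changes were recomputed 546 times, and 514 kept direction and side, while 31 took the other sign. On 1% wakame against control, the other sign came for Abca1 1383355_at with centring (0.0001807), Abca1 1394490_at with the Actb covariate (0.059) and Slco1b2 1369746_a_at with the Gapdh covariate (−0.31). Without 1 array the ranges were −0.13 to 0.39 for Slco1b2 1369746_a_at, −0.11 to 0.14 for Abca1 1383355_at, −0.42 to 0.24 for Abcc2 and −0.094 to 0.19 for Abca1 1382431_at. On 0.1% wakame against control, Slco1b2 1369746_a_at was −0.025 with the Actb covariate, and without 1 array −0.17 to 0.24. Abca1 1383355_at was then −0.053 to 0.23 and Abca1 1382431_at −0.85 to 0.000177. For 1% minus 0.1% wakame, the Gapdh covariate gave −0.18 for Abcb4 and −0.086 for Slco1b2 1387679_at, and the Actb covariate 0.22 for Slco1b2 1369746_a_at. Without 1 array this difference was −0.25 to 0.064 for Abca1 1383355_at, −0.045 to 0.61 for Abca1 1394490_at, −0.21 to 0.30 for Slco1b2 1369746_a_at, −0.023 to 0.27 for Slco1b2 1387679_at, −0.52 to 0.13 for Abcc2 and −0.042 to 0.34 for Abcb4. With the dimmer Slco1b2 probe set, Slc10a1 minus Slco1b2 was 0.060 and their correlation −0.039. The cause was not tested for any of these. Signal over background is not given in the sources used here, so its limit on dim probe sets is unknown.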
